A study of Homo sapiens with 8 samples.

Results

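The autophagy machinery and its cargo receptors were described in MDA-MB-157 breast cancer cells as 38 genes, picked from the deposited expression table by symbol from a list of names. All 38 were among the 21059 genes of the table. They comprise the kinase complex that starts autophagy, the factors that supply lipid to the growing membrane, the lipid kinase complexes, the proteins that read their product, the conjugation enzymes, the ATG4 proteases, the ATG8 proteins, the receptors for cargo and a tether to lysosomes.

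Autophagy encloses cytoplasm in a double membrane, the autophagosome, and delivers it to lysosomes for breakdown. Small ubiquitin-like proteins of the ATG8 family (LC3 and GABARAP proteins) are attached to lipid on that membrane, where receptors such as SQSTM1 bind them and hold the cargo. The pathway is held back by mTORC1 kinase when nutrients are plentiful and is switched on largely by changes to existing proteins, so a transcript level is not a measure of autophagic flux.

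RNA was sequenced from MDA-MB-157, an established estrogen receptor-negative (ER-negative) breast cancer cell line, with 4 libraries in each of 2 groups. Low glucose cells were kept in 5 mM glucose for 48 hours and high glucose cells in 25 mM glucose for 48 hours. Both groups were in medium without serum and had been conditioned in low glucose beforehand, and the comparison asks what a glucose level chosen to model hyperglycemia changes. No library with an osmotic control such as mannitol is among the 8, so glucose and osmolarity cannot be told apart, and it is not stated whether the replicates came from separate experiments, so p-values measure the spread between these libraries only. A bulk measurement of 1 line does not separate fewer cells with a transcript from less of it per cell.

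The libraries held an estimated 9721648 to 12482546 reads, and values are CPM, read counts set against the size of the library and scaled between libraries by the authors, with 3 reads worth 0.212 to 0.267 CPM. Among markers of the line, the mesenchymal VIM fell from 4091 ± 28.5 to 2967 ± 210 CPM (SD, n = 4) and the epithelial KRT18 from 234 ± 4.85 to 170 ± 18.1 CPM, KRT8 and FN1 fell as well and EPCAM, CDH2 and ZEB1 rose (log2 changes of -0.57 to -0.46 and of 0.44 to 0.54), whereas ESR1, the estrogen receptor, and PTPRC, a leukocyte marker, were under the value of 3 reads in all 8 libraries. KRT19, another epithelial keratin, was also under it, and CDH1 was at 0.949 and 0.961 CPM in the groups. Of other cell types, the monocyte marker CD14 was at 1.25 CPM in low and 4.24 CPM in high glucose, the endothelial markers PECAM1 at 1.0 and 2.13 CPM, VWF at 1.45 and 0.31 CPM and CDH5 at 0.28 and 0.02 CPM; the part of these markers in the results was not tested. High glucose replicate 1 stood apart from the other 3 high glucose libraries. Its deviation from the mean of those 3 followed transcript length with a Spearman rho of -0.65 over 11223 genes, against 0.25 to 0.47 for the other high glucose libraries and -0.13 to 0.06 for the low glucose libraries, each set against its own group. Over the 38 autophagy genes the same rho was -0.65 for replicate 1 and 0.245 to 0.393 for the others. The other high glucose libraries were each set against a mean that includes replicate 1, so their rho values are not independent of it. These points share a library, whose base composition was not examined, and the values are given as a description.

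High glucose replicate 4 had the highest value of its group in 11 of the 38 genes and the lowest in 12. Replicate 1 had the highest value of its group in 21 of the 38 genes and the lowest in 8. Genes with short transcripts, such as MAP1LC3A, GABARAP and ATG101, were high in it, and genes with long transcripts, such as EPG5, ATG2B and RB1CC1, were low in it. Calls that change when this library is left out are given with and without it.

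**Figure D1:**
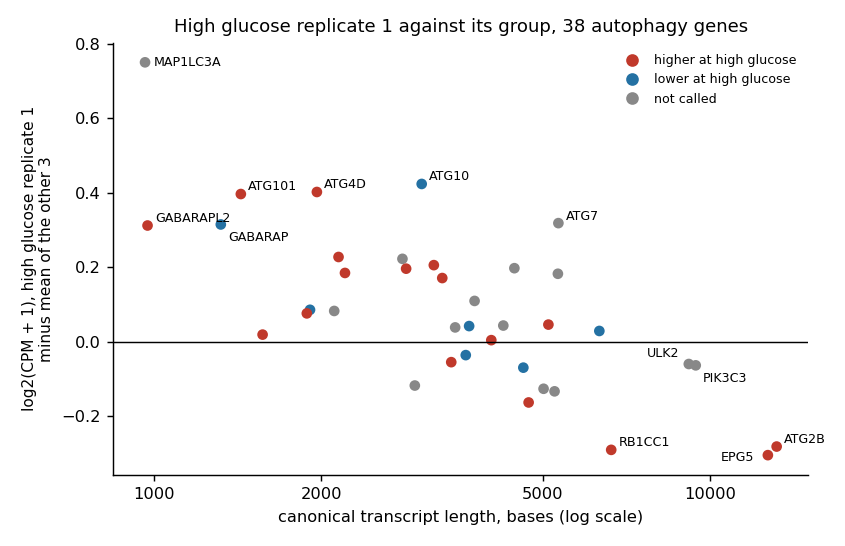
Deviation of high glucose replicate 1 from the other 3 high glucose libraries (y axis, log2(CPM + 1)) against canonical transcript length (x axis, bases, log scale) for the 38 autophagy genes, coloured by the call between glucose groups. The shortest transcripts lay above 0 and the longest below it, with a Spearman rho of -0.65.

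Of the 38 genes, 17 (44.7%) rose at high glucose and 7 (18.4%) fell, with adjusted p-values under 0.05 (limma, adjusted over all 21059 genes), and 14 did not pass the test. Of all genes tested, 22.0% passed as higher, 24.8% as lower and 46.8% in either direction. Every autophagy gene had a mean of at least 5 CPM, the lowest being ATG10 at 5.00 CPM and the highest SQSTM1 at 854 CPM. Of the 11297 genes at or above that level, 33.6% were called higher and 33.3% lower. The share of autophagy genes that rose was above, and the share that fell below, that background, which was not matched gene by gene for abundance. The share called in either direction, 63.2%, was close to its 66.9%. The contrast in direction was smaller under quantile normalization, with 14 of the 38 genes called higher and 11 lower. The 38 genes were chosen with earlier results of these data known. The median log2 change of the 38 genes was 0.09, against -0.01 over all genes. Changes ranged from -0.75 for ATG10 to 1.39 for UVRAG.

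A log2 change of at least 0.5 was reached by 9 of the genes that rose and 2 of those that fell, where 10.9% and 13.6% of all genes, or 16.1% and 17.5% of genes with at least 5 CPM, did so. In 16 genes all high glucose libraries lay above all low glucose libraries and in 6 all lay below (20.9% and 23.6% of all genes; 32.5% and 32.5% of genes with at least 5 CPM). The changes were not of one direction within the pathway. By role, 4 of 6 conjugation enzymes rose and 1 fell. Of the ATG4 proteases 2 of 4 rose, and of the ATG8 proteins 3 of 5 rose and 1 fell. Of the lipid supply factors 1 of 4 rose and 2 fell, and of the cargo receptors 2 of 5 rose and 2 fell. Among all genes with at least 5 CPM, 33.6% were called higher and 33.3% lower. The calls of ATG5, GABARAP, GABARAPL2, ATG4A and TAX1BP1 were each lost under at least 1 alternative processing.

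**Figure D2:**
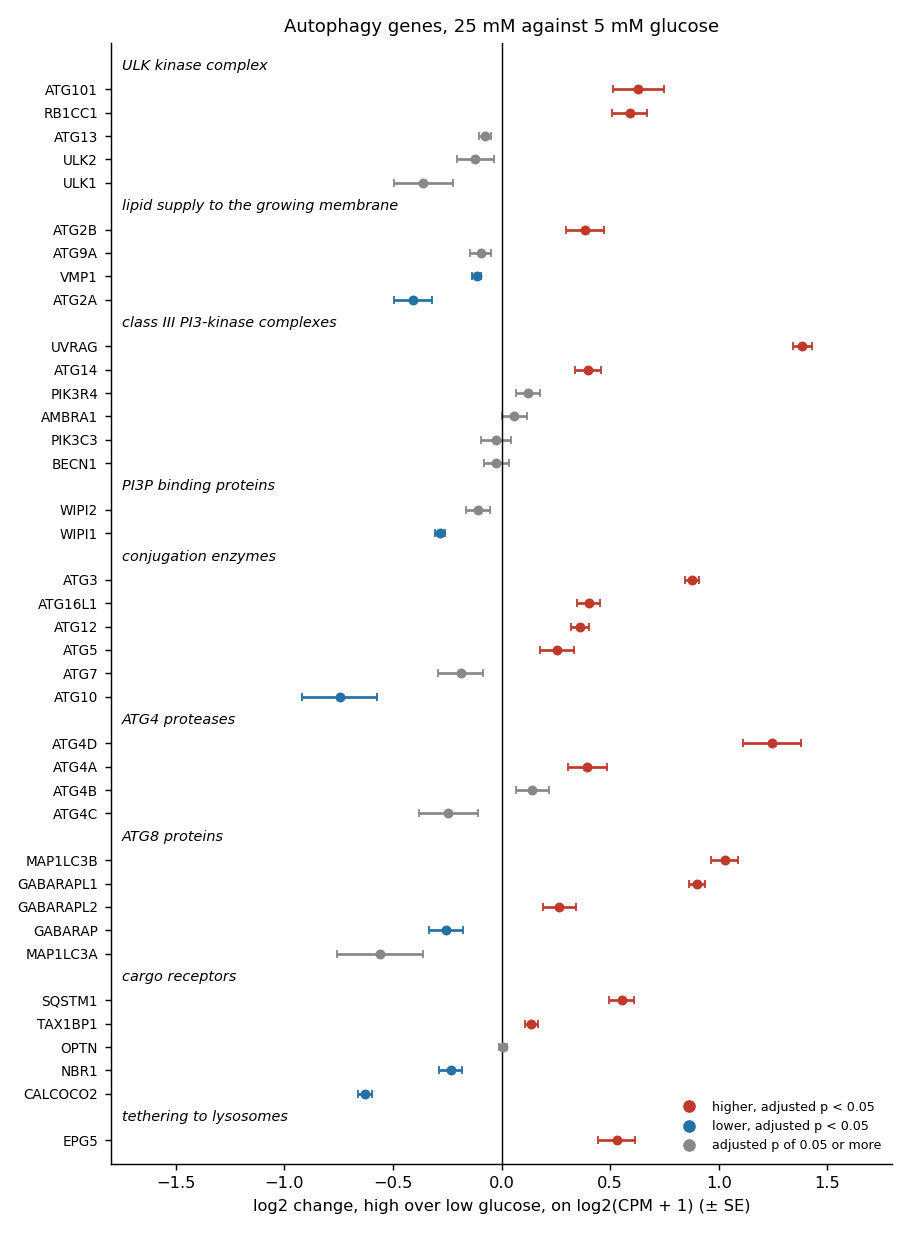
Log2 change of each of the 38 autophagy genes (x axis, high over low glucose on the log2(CPM + 1) scale, points with SE) grouped by role, coloured by the call. UVRAG, at 1.39, and ATG4D, at 1.24, lie farthest to the right, and ATG10 and CALCOCO2, at -0.75 and -0.63, farthest to the left among called genes.

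Autophagy starts with the ULK complex, in which the kinases ULK1 and ULK2 act with the scaffold RB1CC1 (also known as FIP200) and the subunits ATG13 and ATG101. Its 2 risers were the scaffold and a small subunit. RB1CC1, on chromosome 8 at 52622458 to 52714435 (all positions are GRCh38.p14 RefSeq genes), measured 145, 138, 142 and 157 CPM in low glucose replicates 1 to 4, and 188, 226, 225 and 241 CPM in high glucose replicates 1 to 4. All high glucose libraries lay above all low glucose libraries, and replicate 1 was the lowest of them. The log2 change was 0.59 ± 0.08 (SE, adjusted p = 8.0e-04).

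ATG101, which stabilizes ATG13 in the complex, is on chromosome 12 at 52065300 to 52077495. Its values were 26.8, 24.1, 29.5 and 26.2 CPM at low glucose and 51.4, 37.3, 43.1 and 36.4 CPM at high glucose. The groups did not overlap, and high glucose replicate 1 was the highest of the 8 libraries. ATG101 rose by 0.63 ± 0.12 on the log2 scale (SE, adjusted p = 0.00377).

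ULK1, the kinase that mTORC1 and AMPK act on, measured 23.0, 26.0, 31.8 and 29.5 CPM at low glucose and 23.3, 22.6, 22.5 and 16.7 CPM at high glucose. The groups overlapped through low glucose replicate 1, and high glucose replicate 4 was well under the other 3. The log2 change was -0.36 ± 0.14 (SE) with an adjusted p of 0.0654, which became 0.0142 when only genes with a mean of at least 1 CPM were tested and 0.0393 without low glucose replicate 1 (0.00781 to 0.149 over all alternatives). Its relative ULK2 averaged 17.6 and 16.1 CPM at low and high glucose (log2 change -0.12, adjusted p = 0.291; 0.0459 without high glucose replicate 4 and 0.0459 to 0.791 over all alternatives). ATG13 averaged 70.0 and 66.5 CPM (log2 change -0.07, adjusted p = 0.0649; 0.0363 without low glucose replicate 2 and 0.00227 to 0.343 over all alternatives). No kinase of the complex passed the test as higher.

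The membrane grows with lipid that ATG2A and ATG2B carry from the endoplasmic reticulum and that ATG9A and VMP1 move between leaflets. The paired transfer proteins went opposite ways. ATG2A fell from 15.5 ± 1.13 to 11.4 ± 1.34 CPM (SD, n = 4; log2 change -0.41, adjusted p = 0.00712). ATG2B rose from 86.9 ± 6.74 to 114 ± 11.8 CPM (log2 change 0.38, adjusted p = 0.00990). Per kilobase of canonical transcript ATG2B was the more abundant of the pair at low glucose, with 6.6 against 2.45 CPM per kb. VMP1, a protein of the endoplasmic reticulum, fell by 0.11 on the log2 scale, from 300 ± 5.73 to 277 ± 4.92 CPM (adjusted p = 0.00398), with no overlap between groups. PTRH2, which overlaps VMP1 exons on the other strand, rose from 67.5 to 102 CPM (log2 change 0.59, adjusted p = 1.03e-04). ATG9A, the transmembrane protein carried by seed vesicles, was at 88.8 and 83.1 CPM (log2 change -0.10, adjusted p = 0.138; -0.20 and 0.0104 under quantile normalization, and adjusted p-values of 0.0104 to 0.356 over all alternatives). Of the 31-base words of the ATG9A transcript, 48.2% also occur in a readthrough gene that overlaps it, and how reads were divided between the annotations is not known.

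Class III PI3-kinase complexes make the lipid PI3P, which marks the site of the new membrane. PIK3C3 is the kinase, PIK3R4 and BECN1 are its core partners, and either ATG14 or UVRAG is added, ATG14 in the complex that starts autophagosomes and UVRAG in the complex that works on endosomes and on autophagosome maturation. The core did not pass the test and both of the exchangeable subunits rose.

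UVRAG, on chromosome 11 at 75815210 to 76144232, had the largest change of the 38 genes. It measured 19.2, 18.6, 18.7 and 20.8 CPM at low glucose and 53.3, 53.7, 48.8 and 52.4 CPM at high glucose. The groups lay far apart, each with a narrow spread, and replicate 1 was no exception. The ratio of group means was 2.70, and the log2 change was 1.39 ± 0.05 (SE, adjusted p = 1.78e-06). UVRAG-DT, a transcript that overlaps UVRAG exons on the other strand, was at 0 to 0.178 CPM, under the value of 3 reads in every library.

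ATG14 rose less, from 20.4 ± 1.34 to 27.3 ± 1.72 CPM (SD, n = 4), with a log2 change of 0.40 (adjusted p = 0.00154). On the scale of CPM per kb, UVRAG was at 3.77 and ATG14 at 4.34 at low glucose, and UVRAG was at 10.2 and ATG14 at 5.78 at high glucose. The order of the pair by group means was therefore exchanged, though at low glucose the libraries of both genes overlapped on this scale.

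BECN1 (Beclin 1), on chromosome 17 at 42810132 to 42824282, measured 71.0, 63.2, 68.3 and 66.3 CPM at low glucose and 69.0, 60.2, 64.8 and 70.6 CPM at high glucose. The groups overlapped over nearly their whole range. The log2 change was -0.02 ± 0.06 (SE, adjusted p = 0.786), and its sign depended on the scaling between libraries. PIK3C3 averaged 15.2 and 14.9 CPM (log2 change -0.02, adjusted p = 0.834), and its sign too depended on the scaling. PIK3R4 averaged 32.7 and 35.7 CPM (log2 change 0.12, adjusted p = 0.128). AMBRA1, a scaffold that binds Beclin 1, averaged 29.4 and 30.7 CPM (log2 change 0.06, adjusted p = 0.448).

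WIPI1 and WIPI2 bind PI3P, and WIPI2 brings ATG16L1 to the membrane. WIPI1 fell from 68.3 ± 0.91 to 56.0 ± 1.77 CPM (SD, n = 4; log2 change -0.28, adjusted p = 9.8e-05), with all high glucose libraries below all low glucose libraries. ARSG, which overlaps WIPI1 exons on the other strand, also fell, from 11.2 to 7.81 CPM (log2 change -0.48, adjusted p = 0.00273). WIPI2 averaged 109 and 101 CPM (log2 change -0.11, adjusted p = 0.156), and without high glucose replicate 1 it was -0.16 with an adjusted p of 0.0111 (0.0111 to 0.346 over all alternatives).

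**Figure D3:**
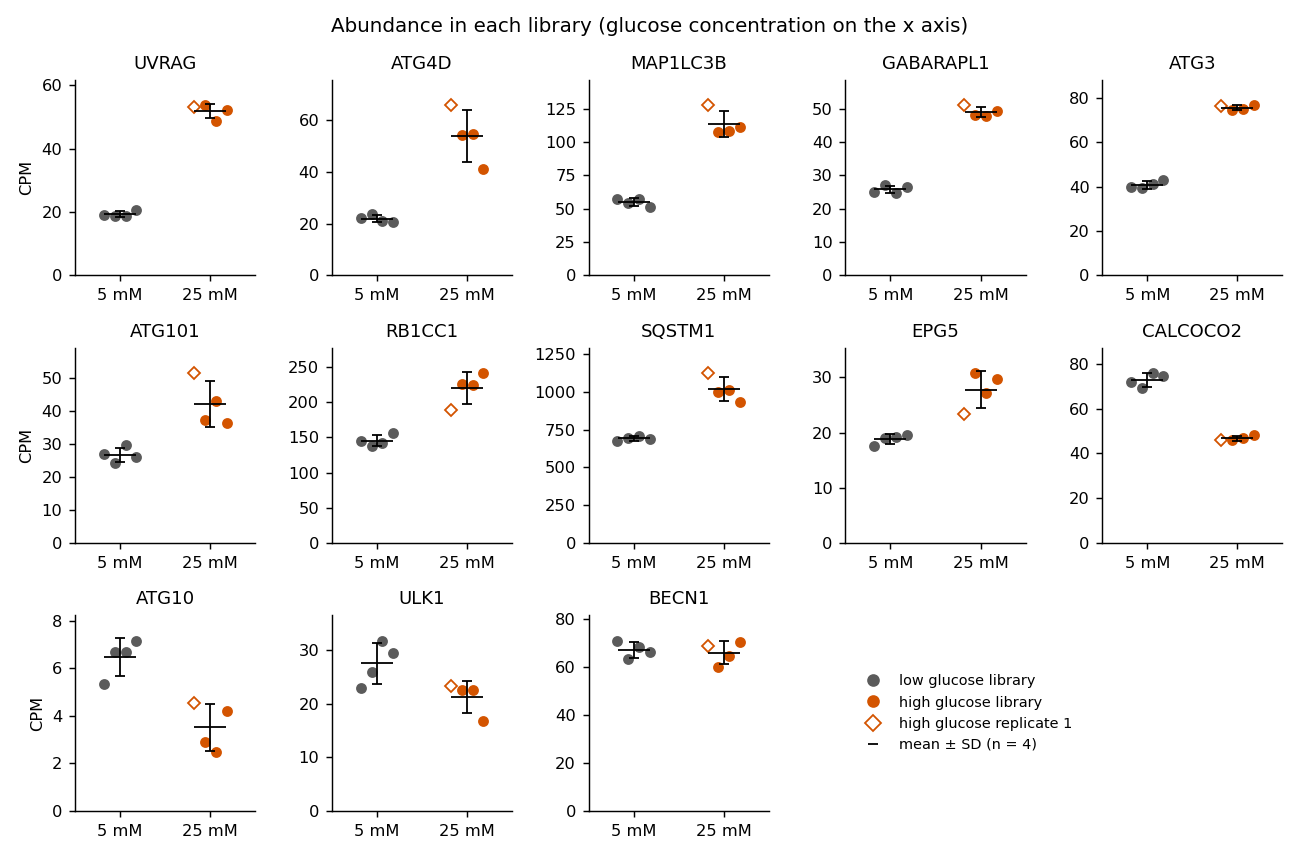
CPM in each library (y axis, linear from 0) at 5 mM and 25 mM glucose for the 11 called autophagy genes with an absolute log2 change of at least 0.5 and for ULK1 and BECN1. Points are libraries, the open diamond is high glucose replicate 1, and lines are mean ± SD (n = 4). The groups are separate in all panels except ULK1 and BECN1.

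ATG8 proteins are joined to lipid by a relay in which ATG7 activates them, ATG3 conjugates them and the ATG12-ATG5-ATG16L1 assembly directs the last step. ATG7 and ATG10 build that assembly by joining ATG12 to ATG5. Of the 6 genes, 4 rose and 1 fell.

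ATG3, on chromosome 3 at 112532510 to 112561962, measured 39.7, 39.3, 41.1 and 43.1 CPM at low glucose and 76.5, 74.8, 74.9 and 76.8 CPM at high glucose. The 4 high glucose libraries agreed within about 2 CPM, and the groups were wide apart. ATG3 rose by 0.88 ± 0.03 on the log2 scale (SE, adjusted p = 2.20e-06). SLC35A5, whose exons overlap those of ATG3 on the other strand, rose as well, from 39.2 to 57.3 CPM (log2 change 0.54, adjusted p = 4.5e-05). Whether strand was used in counting is not given in the sources used here, so reads from such pairs cannot be told apart.

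ATG10, the conjugating enzyme for ATG12, on chromosome 5 at 81972023 to 82256133, was the least abundant of the 38 genes. It measured 5.34, 6.71, 6.71 and 7.16 CPM at low glucose and 4.54, 2.89, 2.47 and 4.2 CPM at high glucose. Every high glucose library was below every low glucose library, and the gap between them was under 1 CPM. ATG10 fell by 0.75 ± 0.17 on the log2 scale (SE, adjusted p = 0.0101). RPS23, a ribosomal protein gene that overlaps ATG10 exons on the other strand, was far more abundant and fell from 533 to 397 CPM (log2 change -0.43, adjusted p = 9.8e-04), and its part in the ATG10 value was not tested.

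The members of the ATG12-ATG5-ATG16L1 assembly all passed as higher. ATG12, the ubiquitin-like part, rose from 51.8 ± 3.06 to 66.8 ± 1.18 CPM (SD, n = 4; log2 change 0.36, adjusted p = 3.4e-04), and AP3S1, which overlaps it on the other strand, from 33.5 to 39.1 CPM (log2 change 0.22, adjusted p = 0.0127). ATG16L1, which binds the membrane, rose from 44.1 ± 1.0 to 58.6 ± 4.40 CPM (log2 change 0.40, adjusted p = 7.0e-04). ATG5 rose by 0.26, from 36.2 to 43.6 CPM (adjusted p = 0.0313), but its groups overlapped and the call was lost, with adjusted p-values of 0.0531 to 0.0803, when any library other than low glucose replicate 1 or high glucose replicate 3 was left out. Without high glucose replicate 1 the ATG5 change was 0.20 (adjusted p = 0.0588; 0.00291 to 0.0803 over all alternatives). ATG7, the activating enzyme, averaged 36.7 and 32.2 CPM (log2 change -0.19, adjusted p = 0.184; -0.27 and 0.0399 without high glucose replicate 1, and adjusted p-values of 0.0399 to 0.366 over all alternatives).

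Promoter sequence (RefSeq, GRCh38.p14, 250 bases before to 50 after the annotated start) was found for 33 of the 38 genes and searched on both strands for 6 short motifs. The E-box CACGTG, the core of the sites bound by TFEB, MITF and MYC among others, occurred in the promoters of ATG3 and ATG14 (2 of 33 genes, 6.06%), against 7.43% of all 27305 promoters. The longer run TCACGTGA, which contains the E-box and is the center of the element named for coordinated lysosomal expression, occurred in ATG3 only among the autophagy genes and in 1.04% of all promoters. The cyclic AMP response element TGACGTCA occurred in GABARAPL1 only (1.98% of all promoters). The FOXO motif GTAAACA occurred in CALCOCO2 only (3.41%), and the AP-1 motif TGACTCA (4.92%) and the C/EBP-ATF motif TTGCATCA (0.923%) in none of the 33. Of the 13093 promoters of genes with deposited values, 9.72% held the E-box, 1.66% TCACGTGA and 2.83% the cyclic AMP response element. The FOXO, AP-1 and C/EBP-ATF motifs were in 2.47%, 3.57% and 0.504% of them. No RefSeq promoter was used for RB1CC1, UVRAG, ATG4D, MAP1LC3A or EPG5. The promoters of ATG3, ATG14 and GABARAPL1, 3 genes that rose, are shown with the E-box or, for GABARAPL1, the cyclic AMP response element in capitals. ATG3 lies on the minus strand at chr3:112561913-112562212, with the first E-box at -18 from the start base and the second just downstream of it, inside TCACGTGA. ATG14 lies on the minus strand at chr14:55411781-55412080, with the motif at -21, and GABARAPL1 on the plus strand at chr12:10212627-10212926, with the motif at -30.
ATG3: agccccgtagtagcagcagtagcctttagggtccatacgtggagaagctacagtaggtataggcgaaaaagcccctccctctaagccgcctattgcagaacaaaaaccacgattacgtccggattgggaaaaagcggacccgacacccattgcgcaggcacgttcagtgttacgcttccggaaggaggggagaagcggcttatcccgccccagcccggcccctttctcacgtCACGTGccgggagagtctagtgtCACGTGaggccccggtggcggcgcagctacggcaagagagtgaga
ATG14: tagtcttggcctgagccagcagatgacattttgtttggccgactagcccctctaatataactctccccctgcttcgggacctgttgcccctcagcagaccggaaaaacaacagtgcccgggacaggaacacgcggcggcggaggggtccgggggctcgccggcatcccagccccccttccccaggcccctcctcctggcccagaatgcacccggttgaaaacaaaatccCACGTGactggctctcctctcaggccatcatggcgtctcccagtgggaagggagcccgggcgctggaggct
GABARAPL1: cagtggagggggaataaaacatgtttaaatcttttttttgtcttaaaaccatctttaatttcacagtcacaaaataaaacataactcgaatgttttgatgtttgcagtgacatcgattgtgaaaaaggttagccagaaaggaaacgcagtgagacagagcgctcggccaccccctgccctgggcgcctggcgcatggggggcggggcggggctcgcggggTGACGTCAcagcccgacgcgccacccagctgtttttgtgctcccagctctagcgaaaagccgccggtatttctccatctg
A match of letters is a description of the promoter and not a site of binding.

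ATG4 proteases trim newly made ATG8 proteins so that they can be conjugated and later cut them from lipid. The family has 4 genes, of which 2 rose. ATG4D, on chromosome 19 at 10543904 to 10553418, measured 22.2, 23.7, 21.0 and 20.6 CPM at low glucose and 65.7, 54.2, 54.4 and 41.0 CPM at high glucose. Low glucose values were close together, while high glucose values spread widely with replicate 1 at the top and replicate 4 at the bottom, all above the low glucose libraries. The ratio of means was 2.46, and ATG4D rose by 1.24 ± 0.13 on the log2 scale (SE, adjusted p = 2.6e-04). KRI1, which overlaps its exons on the other strand, fell from 37.1 to 33.6 CPM (log2 change -0.14, adjusted p = 0.00911).

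ATG4A, which prefers GABARAP proteins, rose from 12.1 ± 1.34 to 16.2 ± 1.35 CPM (SD, n = 4; log2 change 0.39, adjusted p = 0.00968). ATG4B, the broadest of the proteases, averaged 38.1 and 42.3 CPM (log2 change 0.14, adjusted p = 0.179; 0.17 and 0.0273 with each library's trend with transcript length removed, and adjusted p-values of 0.0273 to 0.348 over all alternatives). ATG4C averaged 8.21 and 6.67 CPM (log2 change -0.25, adjusted p = 0.186), and without low glucose replicate 4 it was -0.37 with an adjusted p of 0.0107 (0.0107 to 0.628 over all alternatives). Per kilobase of transcript, ATG4B was the most abundant at low glucose with 41.3% of the summed level of the family, and ATG4D had 33.7%. At high glucose ATG4D had 52.2% (47.1% to 55.2% over the libraries) and ATG4B 29.1%, and the sum of the family went from 33.1 ± 1.5 to 52.2 ± 6.71 CPM per kb (SD, n = 4).

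The ATG8 proteins that coat the membrane are represented among the 38 genes by MAP1LC3A, MAP1LC3B, GABARAP, GABARAPL1 and GABARAPL2. MAP1LC3C, another LC3 gene, was counted with the other core factors and is in none of the sums or shares below. It was low, with a mean of 0.74 CPM over all libraries, and passed as lower (log2 change -0.70, adjusted p = 0.00296). All of its high glucose libraries lay below all of its low glucose libraries. MAP1LC3B encodes LC3B, the usual marker of autophagosomes, and lies on chromosome 16 at 87392336 to 87404774. It measured 57.4, 54.6, 57.2 and 51.4 CPM at low glucose and 128, 107, 108 and 111 CPM at high glucose. The groups did not overlap, and replicate 1 was the highest library. MAP1LC3B rose by 1.03 ± 0.06 on the log2 scale (SE, adjusted p = 1.92e-05), a ratio of means of 2.06. Of its 31-base words 21.8% are shared with other genes, mostly with MAP1LC3B2, which was at 0 to 0.414 CPM, and FBXO31, which overlaps it on the other strand, averaged 12.2 and 14.1 CPM (adjusted p = 0.0799).

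GABARAPL1, on chromosome 12 at 10212877 to 10223128, measured 25.2, 27.0, 24.7 and 26.6 CPM at low glucose and 51.1, 48.2, 47.8 and 49.2 CPM at high glucose. Both groups were tight and lay apart. GABARAPL1 rose by 0.90 ± 0.04 on the log2 scale (SE, adjusted p = 3.5e-06), a ratio of means of 1.90. GABARAPL2 rose by 0.27, from 66.1 ± 0.45 to 80.1 ± 9.63 CPM (SD, n = 4; adjusted p = 0.0252), a call lost with adjusted p-values of 0.0541 to 0.0591 when any low glucose library or high glucose replicate 2 was left out. Under quantile normalization the GABARAPL2 change was 0.17 with an adjusted p of 0.119 (1.36e-06 to 0.119 over all alternatives).

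The other 2 of the 5 genes went down in their means. GABARAP, the most abundant of the family, fell by 0.26, from 222 ± 8.58 to 186 ± 21.8 CPM (SD, n = 4; adjusted p = 0.0332). High glucose replicate 1, at 219 CPM, lay within the low glucose range, and the call was lost with adjusted p-values of 0.0532 to 0.0841 when any library other than high glucose replicate 1 was left out. Without that replicate the GABARAP change was -0.33 with an adjusted p of 4.48e-04 (4.48e-04 to 0.0841 over all alternatives). Of its 31-base words 53.3% also occur in other genes, mostly an overlapping readthrough gene. MAP1LC3A measured 29.3, 30.97, 26.3 and 29.1 CPM at low glucose and 28.9, 20.3, 15.7 and 14.8 CPM at high glucose, so that replicate 1 alone fell within the low glucose range. The log2 change was -0.56 ± 0.20 (SE, adjusted p = 0.0544), and without replicate 1 it was -0.75 ± 0.11 (adjusted p = 0.00236; 0.00236 to 0.127 over all alternatives).

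Summed per kilobase of transcript, the 5 genes were at 305 ± 7.43 CPM per kb at low glucose and 323 ± 37.7 CPM per kb at high glucose (SD, n = 4). The ranges, 297 to 315 and 298 to 379, overlapped, and without replicate 1 the high glucose maximum was 314. The makeup of the sum differed. MAP1LC3B went from 8.41% ± 0.46 to 16.4% ± 0.71 of the sum, GABARAPL1 from 4.5% to 8.12% and GABARAPL2 from 22.2% to 25.4%. GABARAP went from 55.0% ± 0.95 to 43.7% ± 0.51 and MAP1LC3A from 9.82% to 6.30%. For all 5 genes the shares of the 4 high glucose libraries lay outside the range of the low glucose libraries, replicate 1 included. No test was made of these shares.

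**Figure D4:**
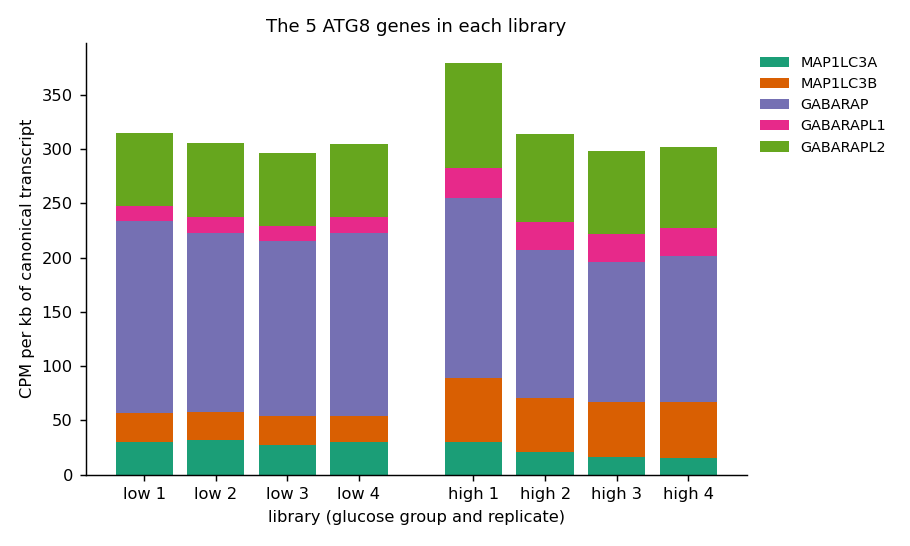
Level of the 5 ATG8 genes in each library (y axis, CPM per kilobase of canonical transcript, stacked) with low and high glucose replicates along the x axis. The low glucose stacks reach 297 to 315 CPM per kb and the high glucose stacks 298 to 379, and the mean MAP1LC3B layer is 25.7 in the first group and 52.9 in the second.

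Cargo receptors hold ubiquitin-tagged cargo with one part and ATG8 proteins with another. SQSTM1 (p62), which is itself degraded by autophagy, was the most abundant of the 38 genes on the scale of CPM per kb in both groups. The gene lies on chromosome 5 at 179806393 to 179838078. It measured 674, 691, 709 and 690.5 CPM at low glucose and 1123, 1001, 1013 and 929 CPM at high glucose. All 4 high glucose libraries were above all low glucose libraries. SQSTM1 rose by 0.55 ± 0.06 on the log2 scale (SE, adjusted p = 2.2e-04). Of its neighbors that overlap it on the other strand, MRNIP rose from 29.7 to 52.3 CPM (log2 change 0.79, adjusted p = 0.00161) and MGAT4B fell from 88.1 to 73.4 CPM (log2 change -0.26, adjusted p = 0.0147).

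CALCOCO2 (NDP52), a receptor for bacteria and damaged mitochondria on chromosome 17 at 48831035 to 48865245, went the other way. Its values were 71.7, 69.2, 75.8 and 74.7 CPM at low glucose and 45.8, 46.0, 46.7 and 48.4 CPM at high glucose. The groups were far apart, with the high glucose libraries closest to each other. CALCOCO2 fell by 0.63 ± 0.03 on the log2 scale (SE, adjusted p = 1.04e-05).

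NBR1, a receptor that works with SQSTM1, fell from 108 ± 1.68 to 91.5 ± 7.03 CPM (SD, n = 4; log2 change -0.24, adjusted p = 0.00766). TAX1BP1, a relative of CALCOCO2, rose by 0.14, from 240 ± 4.81 to 264 ± 9.0 CPM (adjusted p = 0.00667). JAZF1, which overlaps TAX1BP1 on the other strand, rose from 23.9 to 39.5 CPM (log2 change 0.70, adjusted p = 5.6e-05), and under quantile normalization TAX1BP1 was at 0.07 with an adjusted p of 0.0725 (0.00241 to 0.0725 over all alternatives). OPTN averaged 201 ± 2.12 and 202 ± 3.88 CPM, with a log2 change of 0.01 (adjusted p = 0.786) whose sign depended on the scaling. Of the summed level of the 5 receptors in CPM per kb, SQSTM1 made up 58.7% in low and 68.0% in high glucose, and CALCOCO2 4.83% and 2.45%.

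EPG5, which tethers finished autophagosomes to late endosomes and lysosomes, is on chromosome 18 at 45800581 to 45967329. It measured 17.6, 19.1, 19.1 and 19.6 CPM at low glucose and 23.4, 30.8, 27.1 and 29.8 CPM at high glucose. The groups were separate, with replicate 1 the lowest of the high glucose libraries. EPG5 rose by 0.53 ± 0.09 on the log2 scale (SE, adjusted p = 0.00186).

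Ordered by level per kilobase at low glucose, SQSTM1 (243 CPM per kb) was followed by GABARAP (168), VMP1 (81.3), TAX1BP1 (70.1), GABARAPL2 (67.9) and OPTN (57.8). TAX1BP1 and GABARAPL2 were neighbors with non-overlapping ranges of 68.7 to 72.1 and 67.5 to 68.5 CPM per kb. These ranges do not cover the error of dividing by a single canonical length. At high glucose the order of the pair was the reverse, with TAX1BP1 at 77.1 and GABARAPL2 at 82.3 CPM per kb. At the low end at low glucose were ULK2 (1.92), PIK3C3 (1.61) and EPG5 (1.48), all with long transcripts. Between low and high glucose ATG4D moved from place 24 to place 13, UVRAG from 32 to 25 and CALCOCO2 from 16 to 24.

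A further 53 genes of the pathway that are not among the 38, grouped in 4 lists, were all in the table. Of these 21 (39.6%) rose, 13 (24.5%) fell and 19 did not pass the test, with a median log2 change of 0.07. Of all genes 22.0% were called higher and 24.8% lower, and of the 14372 genes with at least 1 CPM, which 50 of the 53 reached, 29.5% and 32.6%, so the 64.2% of these genes called in either direction was close to the 62.1% of that background. Among other core factors 2 of 11 rose and 4 fell (18.2% and 36.4%). The WIPI relatives WDR45B and WDR45 went opposite ways, WDR45B rising from 124 to 181 CPM (log2 change 0.55, adjusted p = 3.8e-05) and WDR45 falling from 90.7 to 63.7 CPM (log2 change -0.51, adjusted p = 6.3e-04). TECPR1, another tether to lysosomes, fell from 17.4 to 9.64 CPM (log2 change -0.80, adjusted p = 7.3e-04).

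Among the factors for fusion with lysosomes 5 of 12 rose and 4 fell (41.7% and 33.3%, against the same 29.5% and 32.6%). Subunits of the HOPS tethering complex were among both. VPS39 fell from 89.5 ± 0.92 to 44.2 ± 3.36 CPM (SD, n = 4; log2 change -1.0, adjusted p = 8.5e-06), and VPS11 rose from 57.0 to 83.2 CPM (log2 change 0.54, adjusted p = 1.1e-04). RAB7A, the small GTPase of late endosomes that EPG5 and HOPS work with, rose from 225 to 335 CPM (log2 change 0.57, adjusted p = 2.6e-05).

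Receptors for organelles held 5 risers and 3 genes that fell of 17, and the 47.1% called in either direction was below the 62.1% of genes with at least 1 CPM. RTN3, a receptor for tubules of the endoplasmic reticulum, rose from 99.0 ± 2.31 to 215 ± 9.68 CPM (SD, n = 4; log2 change 1.11, adjusted p = 1.6e-06). SEC62, which recovers the same organelle after stress, rose from 114 to 157 CPM (log2 change 0.46, adjusted p = 3.2e-05). TOLLIP, an adaptor that binds ubiquitin and ATG8 proteins, rose from 45.6 to 96.7 CPM (log2 change 1.06, adjusted p = 1.2e-04). The 3 receptors that fell were TEX264, FKBP8 and CCPG1. TEX264 went from 34.8 to 23.8 CPM (log2 change -0.54, adjusted p = 0.002965) and FKBP8 from 167 to 119 CPM (log2 change -0.50, adjusted p = 0.02105). CCPG1 went from 73.75 to 58.46 CPM (log2 change -0.34, adjusted p = 0.0125).

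Transcriptional and nutrient control of autophagy held 9 risers of 13 genes, with 2 that fell (69.2% and 15.4%, against 29.5% and 32.6% of genes with at least 1 CPM, which all 13 reached) and a median log2 change of 0.63 (-0.04 in that background). This list too was chosen with earlier results of these data known. It pools factors of the TFEB family with genes that hold autophagy in check, so its share is not a direction for the pathway. FLCN and its partners FNIP1 and FNIP2 form the complex by which mTORC1 keeps the TFEB family in check. FLCN rose from 135 to 209 CPM (log2 change 0.63, adjusted p = 3.8e-05) and FNIP2 from 26.2 to 55.0 CPM (log2 change 1.04, adjusted p = 5.1e-05). FNIP1 rose from 83.4 to 134 CPM (log2 change 0.67, adjusted p = 3.8e-04). MITF, a factor of the TFEB family, rose from 2.17 ± 0.29 to 5.00 ± 0.37 CPM (SD, n = 4; log2 change 0.92, adjusted p = 1.6e-04). TFEB itself rose from 4.49 ± 0.74 to 7.78 ± 1.95 CPM (SD, n = 4; log2 change 0.66, adjusted p = 0.0213). Its lowest high glucose library, at 5.51 CPM, was close to its highest low glucose library, at 5.25 CPM. The TFEB call was not followed through the alternatives. ZKSCAN3, described as a repressor of autophagy genes, averaged 2.80 and 2.82 CPM (log2 change -0.0060, adjusted p = 1).

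**Figure D5:**
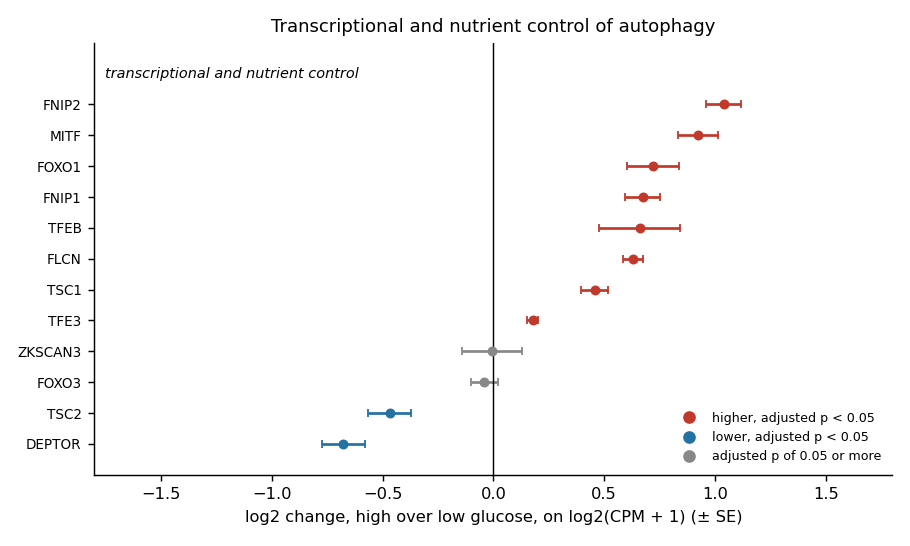
Log2 change of 12 of the 13 regulators of autophagy (x axis, high over low glucose on the log2(CPM + 1) scale, points with SE), ordered by change and coloured by the call. Of those drawn, 8 lie to the right of 0 with adjusted p-values under 0.05, from TFE3 at 0.18 to FNIP2 at 1.04, and DEPTOR and TSC2 lie to the left at -0.68 and -0.47.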

How the data were processed

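RNA from MDA-MB-157 cells was sequenced on an Illumina HiSeq machine. The authors deposited 1 table of CPM values for all 8 libraries. The authors' notes name edgeR and hg38, and their methods, written first for tumors, name hg19 and trimmed mean of M values (TMM) scaling. The counting tool, its use of strand and the annotation release are not given in the sources used here. Of the 21077 lines, 18 Y copies of pseudoautosomal genes, each identical to its X copy, were left out. Reads were estimated from the most frequent low nonzero value of each library, taken as the step of a single read. Only 74.9% to 76.7% of values below 20 reads lay within 0.02 of a whole step. Whole reads were therefore not recovered and no count test was run. Depths and floors cover counting error only.

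Groups followed the sample titles. Values were analysed as log2(CPM + 1), so changes of low genes are understated, with limma 3.58.1 in R 4.3.3 (lmFit, eBayes with trend, 2-sided). Benjamini-Hochberg adjustment ran over the 21059 genes, including 856 at 0. Levels between genes were compared per kilobase of the GENCODE 44 canonical transcript, and overlaps and shared 31-base words came from the same annotation. Positions and promoters came from RefSeq (GRCh38.p14), matched by symbol.

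The 38 genes and all lists were chosen with earlier results of these data known. Values in every library were given for ULK1, BECN1, MAP1LC3B, GABARAPL1 and SQSTM1 and for called genes with an absolute log2 change of at least 0.5. MAP1LC3A was added after its values were seen. From each list of other genes, up to 3 with the smallest adjusted p and a mean of at least 1 CPM were named. FNIP1, TFEB, TFE3, ZKSCAN3, DEPTOR, TSC2, TEX264, FKBP8, CCPG1 and MAP1LC3C were added after their values were seen. A regulator that is counted in its list and a marker are not reported here. Alternatives were a pseudocount of 0.1, means of at least 1 or 5 CPM, median-of-ratios scaling, equal column totals, quantile normalization, array quality weights, removal of each library's trend with transcript length, a replicate block and leaving out each library.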

Additional observations from a re-analysis of the deposited data

Results flagged for a closer look

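Among 100 groups of 4 libraries examined with Dixon's test, 6 had a library far from the other 3, where about 5 are expected by chance. The gap is given as a share of the group's whole range. ULK1 was lower in high glucose replicate 4 (16.7 CPM) than in the other 3 libraries (22.5 to 23.3 CPM), with a gap of 0.882. PIK3C3 was higher in the same library (16.3 CPM against 14.3 to 14.6 CPM, gap 0.8345). ATG16L1 was lower in low glucose replicate 2 (42.6 CPM against 44.5 to 44.7 CPM, gap 0.918). Among the other pathway genes, SEC62 was higher in high glucose replicate 4 (166.5 CPM against 154 to 155 CPM, gap 0.924), RAB7A was higher in low glucose replicate 4 (235 CPM against 220.5 to 223 CPM, gap 0.850) and VPS11 was lower in it (52.9 CPM against 58.1 to 58.9 CPM, gap 0.856).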

How the results depend on the processing

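Of the 24 calls among the 38 genes, 21 to 24 were kept under each alternative, and those lost were limited to GABARAP, ATG5, GABARAPL2, TAX1BP1 and ATG4A. Leaving out 1 library gave 15 to 17 genes called higher and 6 to 10 called lower, and removing the trend with length gave 18 and 9. Under quantile normalization 14 were called higher and 11 lower. The median log2 change was 0.13 with median-of-ratios scaling and 0.11 with equal column totals; median-of-ratios scaling moved the median of genes with at least 1 CPM from -0.04 to -0.0029. Among genes that were not called, the sign turned for PIK3C3 (0.0160 with median-of-ratios scaling, 0.0671 with quantile normalization and -0.0748 to 0.0112 with 1 library left out), for BECN1 (0.0177 with median-of-ratios scaling, 0.00037 with equal column totals, 0.0423 with the length trend removed and -0.0563 to 0.0190 with 1 library left out) and for OPTN (-0.0872 with quantile normalization, adjusted p = 0.00665 in a range of 0.00665 to 1 over all alternatives, -0.00015 with array weights and -0.0017 to 0.0202 with 1 library left out). The cause of these changes was not tested. MAP1LC3A passed at adjusted p-values of 0.00236 to 0.00736 in the 5 alternatives where it was called.

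Whether the replicate numbers pair the samples is not stated, and the main fit did not pair them. Deviations of same-numbered libraries correlated at 0.0692, -0.028, 0.0136 and -0.0403, and only replicate 1 matched its own number best. Low correlations do not show a pairing and cannot exclude one. With a replicate block 16 genes were called higher and 7 lower; ATG4A (adjusted p = 0.0618) and GABARAPL2 (0.0512) were no longer called and PIK3R4 was (0.0383). Among the 38 genes depth limits ATG10 and ATG4C most, with means of 5.00 and 7.44 CPM.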
